A study of Homo sapiens with 12 samples.

Results

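The regions described here were open only with CTD-deleted FOXA2, as far as peak lists can show it. They had an ATAC-seq peak in both libraries of U2OS cells labelled as expressing FOXA2 without its C-terminal domain (CTD), and no peak or entry in any of the other 7 deposited lists. The peaks of all 9 lists on chromosomes 1 to 22 and X were merged into regions wherever they shared at least 1 bp, which gave 399183 regions. Of these, 1851 met the rule and are called CTD-deletion-only regions. They made up 0.464% of all regions and 4.03% of the 45943 regions called in both CTD deletion lists. The regions were chosen by the peak calls themselves, so their number and their strength in these lists are descriptions and carry no test.

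ATAC-seq marks open chromatin by the insertions of the Tn5 transposase. U2OS is a human osteosarcoma cell line. The FOXA2 set held 2 samples labelled wild type, 2 with doxycycline-inducible (Tet-on) full-length FOXA2 and 2 with Tet-on FOXA2 lacking the CTD, each with a peak list of its own. The SOX2 set held 2 samples each of a wild type labelled with the SOX2 cell line, of Tet-on full-length SOX2 and of a Tet-on fusion of SOX2 with the FOXA2 CTD, with 1 list per group. The labels give 4 days of doxycycline at 500 ng/ml for every construct sample. The wild-type samples carry the same text in a protocol field and no entry in their treatment field, so their exposure to doxycycline is not known. The samples are labelled as biological replicates; whether a construct line is 1 clone is not stated. The expressed gene could be read in the lists only as peaks inside FOXA2 (chromosome 20:22580998-22585490, hg38). Each library of the FOXA2 set had one. Its fold enrichment was 5.19 and 14.7 in those labelled wild type, 5.76 and 44.3 with full length (where replicate 2 had another peak of 16.4), and 6.94 and 7.07 with the CTD deletion. None of these was a CTD-deletion-only region. In both CTD deletion libraries the peak (from 22581782 to 22582925 and from 22581754 to 22583047) spanned the whole entry that the SOX2 fusion with the FOXA2 CTD had there, from 22581797 to 22582528. The lists thus show no loss of a peak over that stretch, and the deletion is known here from the labels alone. In the SOX2 set, the wild type and SOX2 lists had an entry only in another part of the gene, from position 22583822 onwards, while the fusion list also had an entry where the FOXA2 set has its peaks. The libraries of the FOXA2 set are therefore named by their labels throughout, CTD deletion included.

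FOXA2 is a forkhead transcription factor of endoderm, liver, pancreas and lung. Its winged-helix DNA-binding domain resembles linker histone, and FOXA proteins are the classic pioneer factors, which bind their sites in closed chromatin and allow it to open. The CTD lies outside the DNA-binding domain, and in the FOXA family the C-terminal part has been linked to contacts with core histones and to chromatin opening. U2OS cells are mesenchymal and are not a tissue in which FOXA2 normally acts. The question behind the CTD deletion is which sites open with or without that domain.

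Sequence was read from RefSeq promoter windows (GRCh38.p14, 250 bases before to 50 after a transcription start), which 8 of the 1851 regions overlapped in 9 windows. The sequences below are the stretches upstream of the start that lie within a CTD-deletion-only region, 5′ to 3′ on the gene's strand. They are shown because they are the places in these windows where such a region meets the upstream sequence of a protein-coding gene. Capitals mark a forkhead heptamer (the letters TGTTTAC, the variant with TGTTTGC or the variant with TATTTAC, on either strand).
OR2F2, chr7:143934983-143935232, plus strand: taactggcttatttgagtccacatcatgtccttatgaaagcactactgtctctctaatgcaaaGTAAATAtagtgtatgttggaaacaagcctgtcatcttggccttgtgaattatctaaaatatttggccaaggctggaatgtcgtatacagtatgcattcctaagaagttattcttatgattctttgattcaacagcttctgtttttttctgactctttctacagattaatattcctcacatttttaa
IL1RL1, chr2:102337007-102337256, plus strand: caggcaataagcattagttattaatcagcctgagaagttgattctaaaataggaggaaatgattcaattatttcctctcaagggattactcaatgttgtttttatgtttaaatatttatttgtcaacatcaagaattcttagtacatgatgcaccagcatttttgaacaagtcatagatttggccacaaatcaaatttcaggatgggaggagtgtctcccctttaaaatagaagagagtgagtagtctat
KRTAP19-7, chr21:30561339-30561564, minus strand: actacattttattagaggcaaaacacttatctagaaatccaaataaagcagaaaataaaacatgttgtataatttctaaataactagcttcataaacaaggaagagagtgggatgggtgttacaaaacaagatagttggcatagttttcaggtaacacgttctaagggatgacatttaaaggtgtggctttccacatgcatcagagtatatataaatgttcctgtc
AKR1C2, chr10:5003858-5003915, minus strand: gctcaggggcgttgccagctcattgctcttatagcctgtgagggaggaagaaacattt
Only the stretch at OR2F2, an olfactory receptor gene, had a forkhead heptamer, read as TATTTAC on the opposite strand. Of the 9 windows, 1 held a forkhead heptamer, beside 3344 of all 34961 promoter windows (9.56%). None of the 9 held the AP-1 site TGACTCA (or TGAGTCA, its reverse complement), found in 4.92% of all windows, or the GC box GGGCGGG, found in 33.1% of all windows. The median GC content of the 9 windows was 37.0%, with a range from 33.0% to 54.0%, beside a median of 58.7% for all windows and of 64.7% for the 6925 windows overlapped by regions called in all 9 lists. The low GC content depended on the rule: its median was 53.0% over 43 windows with the SOX2 set at an IDR of at most 0.05, 54.7% over 136 windows without the SOX2 set, 55.0% over 20 in summit windows and 61.0% over 327 within the 4 lists whose peak names carry no threshold. With 9 windows these shares are imprecise: the Wilson 95% interval of the forkhead share is from 1.99% to 43.5%.

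The lists were not called alike. The CTD deletion lists held 78820 and 146854 peaks and the full-length lists 161136 and 57946, in replicates 1 and 2. The lists labelled wild type held 19862 and 25088. Their lowest −log10 p was 2.01 in both CTD deletion lists and in full-length replicate 1, 3.44 in the list labelled wild type replicate 1, 5.22 in full-length replicate 2 and 5.43 in the list labelled wild type replicate 2. The SOX2-set lists held from 110813 to 177650 entries at any irreproducible discovery rate (IDR). A region can thus be absent from a stricter list and yet have been open in that library. Read depth is unknown for every library.

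CTD-deletion-only regions were of middling strength in the lists that called them and were seldom among the strongest peaks. Their median fold enrichment over the library's own background, as deposited by the authors, was 3.47 in replicate 1 (quartiles 3.04 and 3.90, range 2.09 to 6.94) and 3.51 in replicate 2 (quartiles 2.92 and 4.07, range 2.20 to 7.22). Among all peaks of its own list the median region stood at percentile 44.1 in replicate 1 and 53.2 in replicate 2. Over all regions with a peak in that list, the median percentile was 51.0 and 53.2. Only 47 of the 1851 (2.54%) lay above the 80th percentile in both lists, and 588 (31.8%) lay below the 20th in at least 1 of them. In replicates 1 and 2 taken singly, 7.83% and 13.0% lay above the 80th. This compares with 20.7% and 20.9% of all regions with a peak in that list. Below the 20th lay 21.0% and 16.5%, beside 19.3% and 17.5% of all regions, so low percentiles were about as frequent as over all regions. By contrast, the 6105 regions called in both full-length and both CTD deletion lists and in no other list, called regions open with both constructs here, had a median of 4.34 and 4.59 in the same lists and stood at percentiles 73.4 and 80.2. Of these, 26.0% lay above the 80th percentile in both CTD deletion lists.

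**Figure D1:**
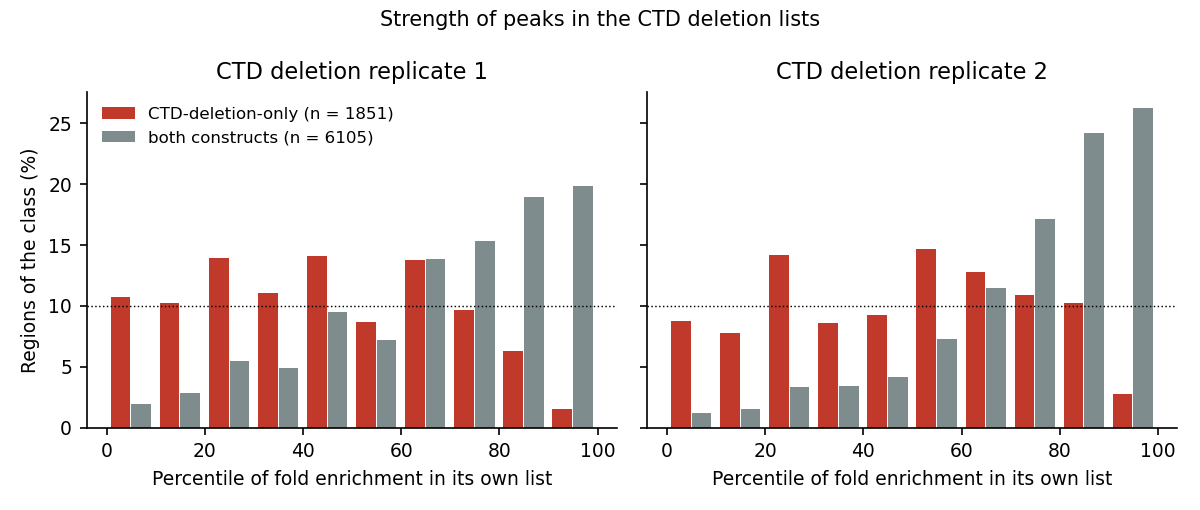
Percentile of the fold enrichment of each region's strongest peak among all peaks of the same CTD deletion list (x axis) against the share of regions of the class in each step of 10 percentiles (y axis, %). The dotted line is the share that each step would hold if no peaks of the list shared a value. Peaks with the same fold enrichment share a percentile, so the list itself need not fill the steps evenly. A single step above the line can therefore reflect shared values. CTD-deletion-only regions (red) are spread over the low and middle percentiles and thin out at the top. Regions open with both constructs (grey) are most frequent there.

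Many of these peaks shared the same few values of deposited fold enrichment. In replicate 1, 590 of the 1851 regions (31.9%) shared 5 values, 3.04, 3.47, 3.90, 4.34 and 4.77, each 0.434 above the one before. In replicate 2, 715 regions (38.6%) shared 2.34, 2.92, 3.51, 4.09 and 4.68, with steps of 0.585. Differences in fold enrichment between regions of this class are thus often a step of this size. In replicate 2 the lower quartile and median over all regions with a peak there, 2.92 and 3.51, were among these values. How many peaks outside the class share them was not counted. The −log10 p had a median of 4.18 in replicate 1 and 4.01 in replicate 2. At 5.43, the highest of the lowest values of the 6 lists of the FOXA2 set, 133 regions (7.19%) passed in both CTD deletion lists and 1226 (66.2%) in neither. In replicates 1 and 2 taken singly, 23.5% and 17.45% passed. This compares with 39.1% and 25.9% of all regions with a peak in that list. Among regions called in both CTD deletion lists it was 56.9% and 59.3%.

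A further 3057 regions were called in both CTD deletion lists and in exactly 1 other list, most often a full-length list. For 1824 of them that list was full-length replicate 1, the longest of the FOXA2 set, and for 512 it was full-length replicate 2. Among all 399183 regions, 154563 had a peak in the former list and 55747 in the latter. The median fold enrichment of the 1824 was 3.90 and 3.85 in CTD deletion replicates 1 and 2, and that of the 512 was 3.82 and 3.93. The other list was that labelled wild type replicate 2 for 50 regions, with similar medians of 3.90 and 3.86, and that labelled wild type replicate 1 for 6, with 3.32 and 3.63. It was the SOX2-set wild type for 285 regions and the fusion for 240, both with medians of 3.47 and 3.51 as in the CTD-deletion-only class, and SOX2 for 140, with 3.41 and 3.45. On the other side of the rule, 18188 regions had a peak in CTD deletion replicate 1 alone and 51000 in replicate 2 alone, with median fold enrichments of 3.04 and 2.92. The mirror class, 3127 regions called in both full-length lists and in no other, made up 0.783% of all regions and 7.02% of the 44572 regions called in both full-length lists. These full-length-only regions had to pass the strict threshold of full-length replicate 2, while neither CTD deletion list set such a threshold.

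The summits of both CTD deletion libraries lay about as far apart as in regions open with both constructs, where the median was 126 bp. The median distance between the summits of replicates 1 and 2 was 112 bp (quartiles 48 and 214), and 26.6% of the regions (Wilson 95% interval 24.7% to 28.7%) had summits within 50 bp. The same share was 26.7% (25.6% to 27.8%) in regions open with both constructs and 33.8% (32.8% to 34.9%) in regions called in all 9 lists. The strongest peaks of both libraries shared a median of 44.9% of the bases they covered together, less than the 59.4% of regions open with both constructs, whose merged regions were also wider (median 728 bp against 463 bp). Across the 1851 regions the fold enrichments of both libraries had a Pearson correlation of 0.272 on the log2 scale and a Spearman correlation of 0.261, against 0.414 and 0.383 over the 6105 regions open with both constructs. These are correlations across regions of the same libraries, which the cut at both lists narrows, and they are given as descriptions. Almost all regions were single peaks: 8 had more than 1 peak in replicate 1 and 28 in replicate 2.

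The 10 regions with the highest strength in the weaker of both lists were scattered over 7 chromosomes. The first, on chromosome 8:129131392-129132001, had a fold enrichment of 5.74 and 6.20 in replicates 1 and 2, and lay 573433 bp from GSDMC, which encodes a pore-forming gasdermin. Next came a region at chromosome 11:6673731-6674339 with values of 5.64 and 5.38, at 6045 bp from MRPL17, a protein of the mitochondrial ribosome. The region at chromosome 2:30956917-30957644 (5.47 and 5.29) lay inside GALNT14, an enzyme that starts O-linked glycosylation, with summits 10 bp apart. Of the other 7, 5 also lay in or near a protein-coding gene.
The region at chromosome 11:43367715-43368296 (6.64 and 5.26) lay inside TTC17, at 8794 bp from its start. That at chromosome 21:42908271-42909031 (5.24 and 5.26) lay inside NDUFV3, a subunit of mitochondrial complex I. The region at chromosome 4:170079997-170080544 (5.20 and 5.26) lay inside AADAT, a mitochondrial aminotransferase of lysine and tryptophan breakdown, with summits 9 bp apart. KDM4C, a demethylase of histone H3 lysine 9, held the region at chromosome 9:6975034-6975632 (5.20 and 5.85). That at chromosome 4:109425934-109426538 (5.48 and 5.09) lay 7276 bp from SEC24B, a subunit of the vesicle coat that leaves the endoplasmic reticulum. The remaining regions were distal: chromosome 3:28814617-28815282 (5.20 and 6.70) lay 238289 bp from the nearest protein-coding gene, and chromosome 9:118671917-118672663 (5.20 and 5.75) lay 493965 bp from BRINP1. None of the 10 was within 1 kb of a start among the 9 for which the distance was measured, since starts on chromosome 8 were not used here. At the other end, the region with the lowest percentile, chromosome 12:35267233-35267778, had 2.09 and 3.26.

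CTD-deletion-only regions, like regions called in 1 list alone, were seldom at transcription starts. Of the 1742 outside chromosome 8, 15 (0.861%, Wilson 95% interval 0.523% to 1.42%) lay within 1 kb of a protein-coding start, against 3.82% of all regions, 17.0% of the regions called in both CTD deletion lists and 49.7% of those called in all 9 lists. The rule leaves out every region with a peak in another list, and thus all regions called in all 9 lists, where starts were frequent. A share below these backgrounds is therefore in part set by the rule and cannot be read as a property of the class. The share was of the same order in full-length-only regions (0.925%, 0.636% to 1.34%) and in regions open with both constructs (0.610%, 0.439% to 0.848%). The median distance of CTD-deletion-only regions to a start was 109683 bp, and it was 100805 bp and 110652 bp in these classes. Over all regions it was 89302 bp. Over 100 kb from a start lay 51.9% of CTD-deletion-only regions and 47.4% of all regions. Regions called in 1 list alone had from 0.816% (full-length replicate 1) to 2.70% (full-length replicate 2) within 1 kb of a start. For CTD deletion replicates 1 and 2 alone the share was 1.24% and 0.941%. Outside protein-coding genes lay 1068 of the 1851 (57.7%, 55.4% to 59.9%), beside 56.0% of all regions, 52.7% (51.0% to 54.5%) of full-length-only regions and 54.2% (52.9% to 55.4%) of regions open with both constructs. The intervals cover counting error only, since regions of the same libraries are not replicate cultures, and no p-value is given: an exact permutation test of 2 libraries against 2 cannot go below 0.333.

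**Figure D2:**
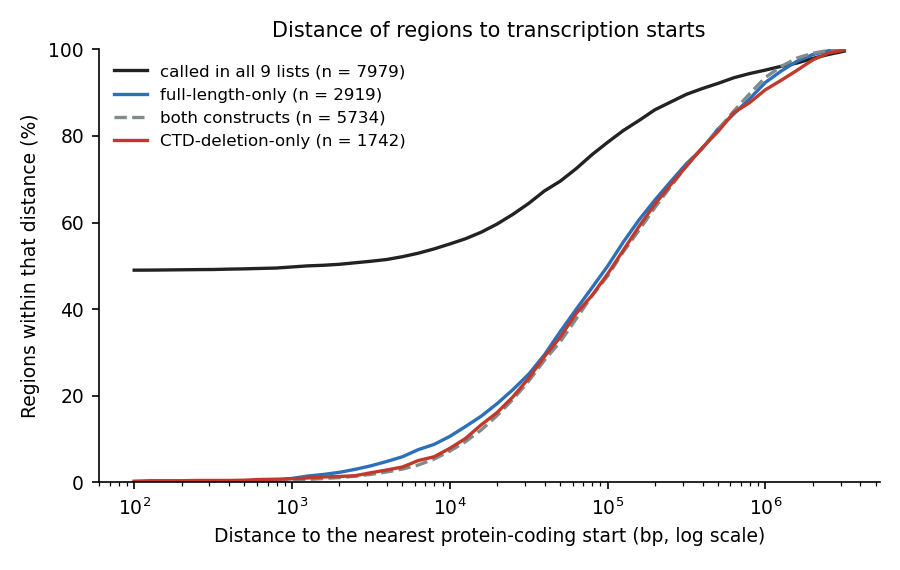
Share of regions (y axis, %) within a given distance of the nearest protein-coding transcription start (x axis, bp, log scale), for 4 classes of regions outside chromosome 8. The curves of CTD-deletion-only, full-length-only and both-construct regions lie close together, with medians from 100805 to 110652 bp, while 49.7% of the regions called in all 9 lists are within 1 kb of a start.

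The 15 regions at starts were weaker than the class as a whole, with a median fold enrichment of 3.04 and 3.26 in replicates 1 and 2 against 3.47 and 3.51. The strongest was that at the olfactory receptor gene OR2F2 whose sequence is given above, at chromosome 7:143934691-143935331, with 4.34 and 3.72. The region at AKR1C2, an aldo-keto reductase of steroid metabolism, had 3.47 and 3.93 (chromosome 10:5003435-5003915), with summits 7 bp apart. The region at KRTAP19-7, a keratin-associated protein gene of hair, had 3.08 and 3.98 (chromosome 21:30561339-30561744), with summits 6 bp apart. Those at TMEM114 (3.75 and 3.26) and LRRC56 (4.77 and 2.92) lay 688 bp and 576 bp from a start. IL1RL1, the receptor of interleukin-33, named after its values were seen, had a region over its whole promoter window (chromosome 2:102336919-102337543) with 2.99 and 4.59, a percentile of 19.6 in replicate 1 and of 80.2 in replicate 2.

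Some of the class lay in chromosome stretches that hold no annotated gene. On each chromosome the longest stretch without any RefSeq gene was taken, a measure chosen after the positions had been seen. On most chromosomes this stretch holds the centromere with its satellite repeats, and on 13, 14, 15, 21 and 22 it lies on the short arm or reaches into it. These stretches added up to 164 Mb and held 145 of the 1851 CTD-deletion-only regions (7.83%, Wilson 95% interval 6.70% to 9.15%), against 3.00% of all regions. Full-length-only regions had 31 of 3127 there (0.991%, 0.699% to 1.40%), and regions open with both constructs had 16 of 6105 (0.262%, 0.161% to 0.425%). Without the demand that other lists lack a peak, both constructs were nearly alike. The share was 3.43% of regions called in both CTD deletion lists and 3.35% of those called in both full-length lists. It was 4.05% of regions called in all 9 lists. Regions called in 1 list alone also differed: 6.72% (6.36% to 7.09%) for CTD deletion replicate 1, 2.56% for CTD deletion replicate 2, 2.22% for full-length replicate 1 and 11.8% for full-length replicate 2.

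**Figure D3:**
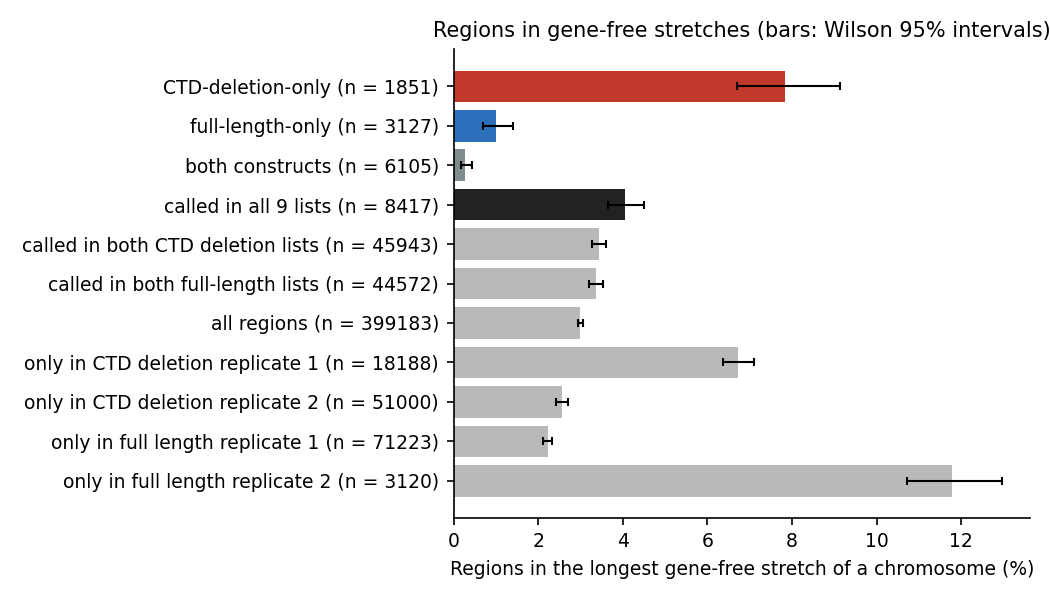
Share of regions (x axis, %) that lie in the longest gene-free stretch of their chromosome, by class (rows), with Wilson 95% intervals that cover counting error only. CTD-deletion-only regions (7.83%) are above full-length-only regions (0.991%) and regions open with both constructs (0.262%), and regions of full-length replicate 2 alone have 11.8%. Regions called in both CTD deletion lists (3.43%) and in both full-length lists (3.35%) are nearly alike.

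The share was higher among weak regions. Of the 617 regions weakest by the lower of both percentiles, 84 (13.6%, 11.1% to 16.5%) lay in these stretches, of the middle 617 there were 44 (7.13%, 5.35% to 9.44%), and of the strongest 617 there were 17 (2.76%, 1.73% to 4.37%). The 145 regions had a median fold enrichment of 3.18 and 3.21, against 3.47 and 3.51 for the other 1706. With the same number of peaks in every list of the FOXA2 set the share was 0.351%, with 0.102% for full-length-only regions, and at a common −log10 p it was 1.61%, with 0.407%. Where a full-length list was left out, the full-length-only class needed only the other one. The CTD-deletion-only class still needed both of its lists. Without full-length replicate 1 the shares were 5.70% and 6.17%, the latter over 6561 regions. The classes are then not cut alike, and the turn in their order cannot be read as one between like classes. Without the list labelled wild type replicate 2, with both classes still needing both of their lists, the shares were 8.08% and 2.68%. Without full-length replicate 2 they were 6.56% and 2.16%, the latter over 74929 regions. The lists whose peak names carry no threshold were both CTD deletion lists, full-length replicate 1 and the list labelled wild type replicate 1. Within these 4 lists the shares were 4.87% and 2.16%, the latter over 93280 regions. The part of peak strength and of the lists' thresholds in these shares was not tested.

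Chromosome 18 held the most such regions. Its gene-free stretch, chromosome 18:15330264-20946905, had 36 CTD-deletion-only regions, 2 full-length-only regions and 1 open with both constructs. Chromosome 12 (15 regions), 11 (14), 7 (12) and 20 (10) followed, and these 5 stretches held 87 of the 145. In the stretch of chromosome 18 there were 200 regions called in CTD deletion replicate 1 alone, 218 in replicate 2 alone and 233 in full-length replicate 1 alone, against 10 in full-length replicate 2 alone. Gene-free regions of full-length replicate 2 alone were most frequent on chromosomes 1 (143) and 13 (108), where CTD-deletion-only regions numbered 2 and 4.

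Over whole chromosomes the share of CTD-deletion-only regions among regions called in both CTD deletion lists, 4.03% in all, was from 1.52% on chromosome 19 (14 of 919) to 6.83% on chromosome 18 (84 of 1230). Without the gene-free stretches, chromosome 18 had 4.15% (48 regions) and the highest share was that of chromosome 2, 4.70%. The gene-dense chromosomes 19 and 22 were lowest, at 1.53% and 2.43%, also without these stretches. In full-length-only regions the lowest share was likewise that of chromosome 19, 1.90%, beside 7.02% in all. By stretches of 10 Mb, the median was 5 regions and 20 of 310 stretches had none. The highest counts were 35 at chromosome 18:10000001-20000000 and 22 at chromosome 12:30000001-40000000, of which 29 and 15 lay in a gene-free stretch. Among the next, 18 at chromosome 2:20000001-30000000, 17 at chromosome 3:20000001-30000000 and 17 at chromosome 3:30000001-40000000 did not touch one. Chromosome 11:50000001-60000000 and chromosome 20:20000001-30000000 also had 17 each, of which 14 and 10 lay in a gene-free stretch. Full-length-only regions numbered 5 at chromosome 3:30000001-40000000 and 23 at chromosome 2:20000001-30000000.

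**Figure D4:**
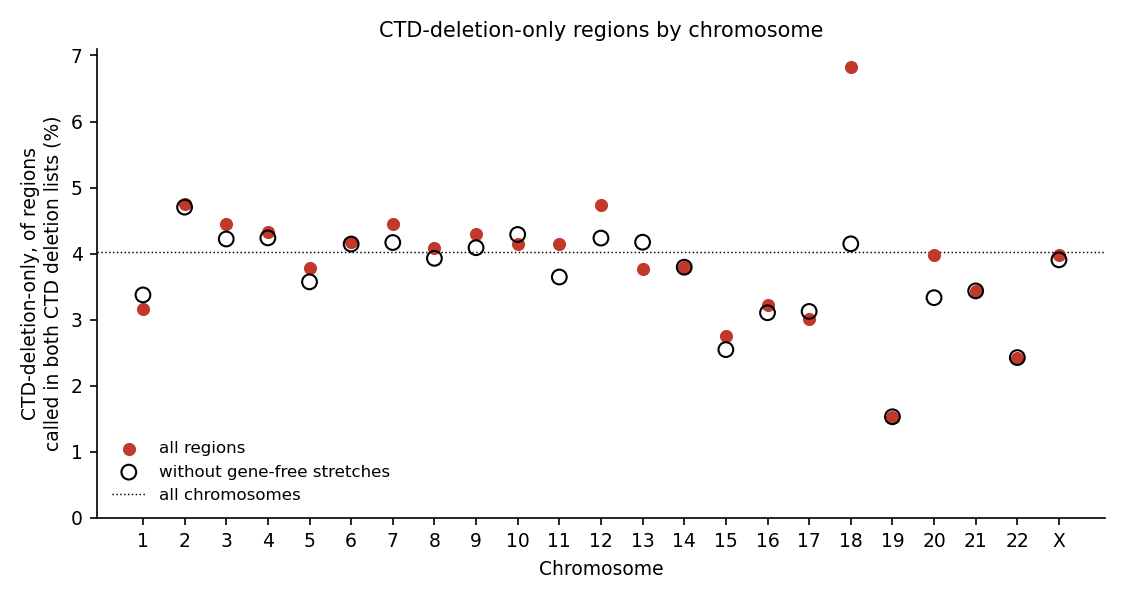
Share of CTD-deletion-only regions among all regions called in both CTD deletion lists (y axis, %), by chromosome (x axis), with all regions (filled) and without the longest gene-free stretch of each chromosome (open). The dotted line is the share over all chromosomes, 4.03%; chromosome 18 is highest with all regions (6.83%) and at 4.15% without its gene-free stretch.

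The regions were seldom close to each other, as in the other classes. They were more often close to peaks of other lists, which hold far more peaks than the class has regions. The same distances were not measured over all regions. The median distance to the nearest other CTD-deletion-only region was 411054 bp, and 97.8% were at least 10 kb from one. Within the larger classes the median was 231649 bp (full-length-only) and 137101 bp (open with both constructs). The share with a region of the same class at under 1 kb was 0.540%, against 0.256% and 0.328%. The nearest peak of any list without the CTD deletion was at a median of 2582 bp, 497 regions (26.9%) had one at under 1 kb, and 9.24% had none within 10 kb. For full-length-only regions, measured to peaks of the 7 lists that did not define them, the median was 2418 bp and the share under 1 kb 26.2%. Regions open with both constructs, measured to the other 5 lists, were at a median of 4241 bp, with 14.9% under 1 kb and 21.3% with none within 10 kb. To full-length replicate 1 the median distance was 5639 bp, with 271 regions (14.6%) at under 1 kb, and to the shorter list of full-length replicate 2 it was 19740 bp, with 51 regions (2.76%).

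Inside genes, CTD-deletion-only regions were spread thinly over long genes. Of 19974 protein-coding genes, 728 had a region in their body: 671 had 1, 46 had 2 and 11 had 3 or more. Genes with a region had a median length of 153 kb, against 24.2 kb for all protein-coding genes and 149 kb for genes with a full-length-only region. DOCK1, which activates the GTPase RAC1 in cell migration, had the most, with 5 in 547 kb, and held no full-length-only region, 2 regions open with both constructs and 12 called in both CTD deletion lists. DAB1, an adaptor of reelin signalling, had 4 in 1552 kb, the photoreceptor gene EYS 4 in 1987 kb and LINGO2 4 in 1276 kb. Full-length-only regions in these numbered 1, 8 and 4. TRMT11, a tRNA methyltransferase subunit, was the shortest of the 11, with 3 regions in 286 kb, 0 full-length-only regions and 0 open with both constructs. The others with 3 regions were AGBL4, the receptor kinase gene ALK, NRXN3, PRKG1, RBMS3 and THSD7B.

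Genes that FOXA2 is known for were near the background. Of all protein-coding genes, 887 (4.44%) had a CTD-deletion-only region in the body or within 10 kb. Of 20 forkhead and endoderm regulators, among them FOXA1 to FOXA3, HNF4A, GATA4, SOX17 and EOMES, 0 did. A region called in both CTD deletion lists was found at 11 of these 20 genes, beside 73.6% of all protein-coding genes. Of 20 genes of liver plasma proteins 1 did: FGG, the gamma chain of fibrinogen, with a region 910 bp away at chromosome 4:154602693-154603225 and a fold enrichment of 4.77 and 6.38. Of 20 hepatic metabolic genes 1 did, ABCC2, an export pump of conjugated bilirubin, with 2.86 and 3.60.
Genes of the osteoblast, the lineage nearest to U2OS, had 2 of 20: RUNX2, the master regulator of bone formation (3.20 and 2.92), and the collagen gene COL5A1 (2.52 and 3.37). Of 20 genes of AP-1 and of the TEAD pathway 1 did, TEAD1 (2.98 and 3.51). The share over all genes, 4.44%, comes to about 1 gene in 20, so these counts lie near the background. Of 20 very long genes of neural cell adhesion and synapses (median length 1276 kb) 9 did, among them the delta-catenin gene CTNND2 (4.10 and 5.26), the synaptic scaffold gene DLG2 (4.13 and 4.84), the neurexin gene NRXN3 (3.90 and 4.12) and the neuronal alpha-catenin gene CTNNA2 (5.20 and 3.51). In that list 16 genes also had a full-length-only region, beside 7.36% of all genes, and 18 had a region open with both constructs, beside 12.3% of all genes.

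The number of regions depended on how the lists were cut. With the strongest 19862 peaks of each list of the FOXA2 set, 285 regions met the rule, of which 18 overlapped the 1851, and 983 were full-length-only. At a common −log10 p of at least 5.43 for these lists, 311 met it, of which 133 overlapped the 1851, and 3437 were full-length-only. With the SOX2 set left out of the rule, 5343 met it and 4546 were full-length-only. Leaving out full-length replicate 1 gave 3615 regions. Leaving out CTD deletion replicate 1 gave 53131 and leaving out CTD deletion replicate 2 gave 20255, where a peak in the other CTD deletion list was enough. Within the 4 lists whose peak names carry no threshold, 7746 regions had a peak in both CTD deletion lists and in neither the list labelled wild type replicate 1 nor full-length replicate 1.

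**Figure D5:**
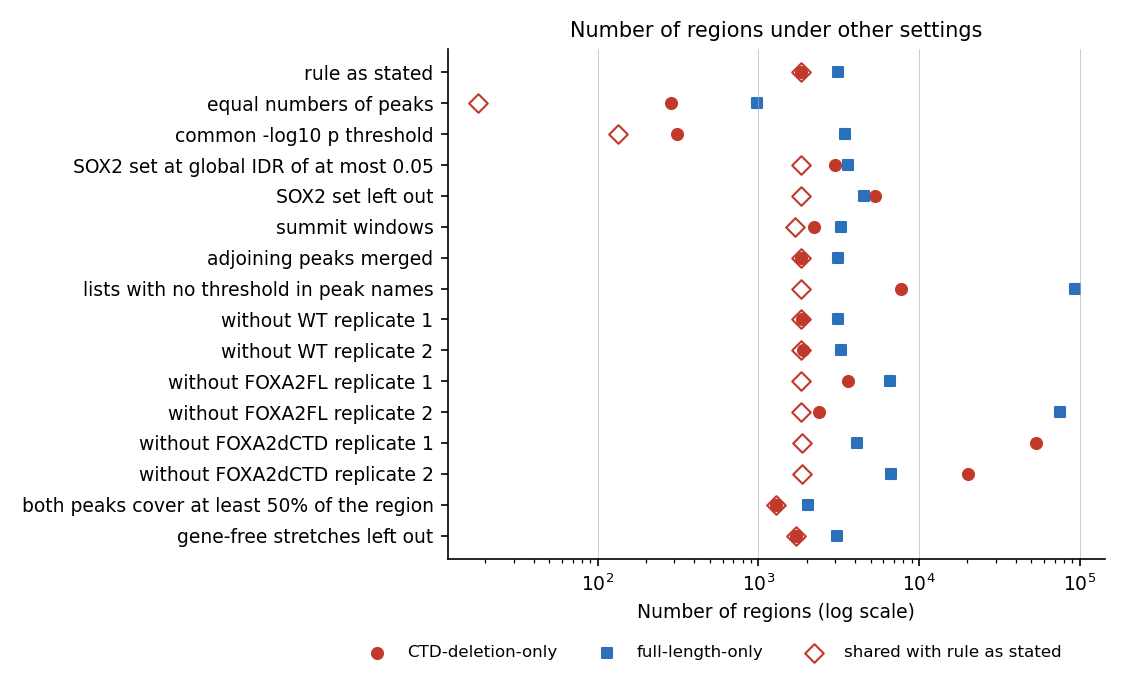
Number of CTD-deletion-only regions (circles) and full-length-only regions (squares) under each setting (rows), and of CTD-deletion-only regions that overlap the 1851 of the rule as stated (diamonds), on a log axis. At equal numbers of peaks 285 regions meet the rule and 18 overlap the 1851, and at a common −log10 p 311 and 133. Where a list of a construct is not used, the class of that construct needs a peak only in its other list.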

How the data were processed

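ATAC-seq peak lists of U2OS cells were used as deposited. Per the submitters' processing notes, FastQC 0.10.1, Trim Galore, Bowtie2 2.4.4, SAMtools 0.1.18, MACS2 and deepTools 2.4.1 were used with hg38; their settings, the handling of duplicates and any control are not given in the sources used here. The authors' lists of the FOXA2 set give for each peak a deposited fold enrichment (a ratio over the background of the same library), a −log10 p, a −log10 q and a score; those of the SOX2 set are IDR output for 2 inputs with a deposited −log10 p and a score that restates the IDR. The 2 samples of a group are taken to be the inputs of its list.

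Peaks were merged, classed and set beside RefSeq genes and promoter windows (GRCh38.p14) in Python 3.11.15 with numpy 2.4.6, pandas 2.3.3 and scipy 1.17.1; the code was checked on simulated peaks. All symbols of the gene lists matched. Named regions: the 10 with the highest lower-of-both percentile, the 5 such within 1 kb of a start, those with a forkhead motif, genes with most regions, up to 4 genes per list, and the densest 10 Mb stretches. No genome sequence was used, so repeat content and motifs outside promoter windows were not analysed here. Members, lists and comparisons were chosen with earlier results of these data known. Depth is unknown, and counting intervals are Wilson 95% intervals.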

Additional observations from a re-analysis of the deposited data

How the results depend on the processing

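No paired analysis was possible for the rule as stated, because each count and share takes both replicates of a group together as 1 set of regions. Values per replicate, such as fold enrichments, were described only, and no fit was made that could hold the replicate number. The number of regions became 285 at equal numbers of peaks, 311 at a common −log10 p, 133 where only the CTD deletion peaks had to reach it, 2979 with the SOX2 set at a global IDR of at most 0.05, 5343 without the SOX2 set and 7746 within the lists with no threshold in their peak names. Leaving out 1 library gave from 1857 to 53131, the latter with CTD deletion replicate 2 as the only CTD deletion list. The share within 1 kb of a start, 0.861%, was 3.56% at 5 kb, 1.84% for all annotated genes, 1.63% with the SOX2 set at that IDR, 2.68% without the SOX2 set, 1.96% in summit windows and 4.44% within the lists with no threshold in their peak names. It was 0% at equal numbers of peaks (0 of 271, upper Wilson bound 1.40%), at a common −log10 p (0 of 284, 1.33%) and where the CTD deletion peaks had to reach it (0 of 122, 3.05%). The share outside genes, 57.7%, was 44.5% with all annotated genes, 50.8% and 50.4% at the common −log10 p in all lists and in the CTD deletion lists alone, and 54.1% without gene-free stretches. The share in gene-free stretches, 7.83%, was 0.351%, 1.61% and 1.50% at equal numbers and under these thresholds, 4.15% without the SOX2 set and 4.87% within the lists with no threshold in their peak names. It ranged from 2.75% (CTD deletion replicate 2 as the only CTD deletion list) to 8.08% when a library was left out. The cause of these moves was not tested, beyond fewer or other lists entering the rule. Settings chosen after seeing the data were the threshold on the CTD deletion lists alone, the exclusion of gene-free stretches and a rule that both peaks cover at least 50% of the region (1285 regions). The planned overlap setting was met by every peak and was not run, and repeat content, other window sizes and heptamer ranks were not run.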

Other observations

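Gene-free stretches were also unevenly represented among regions that a single list called alone. The list labelled wild type replicate 2 had 440 of its 1167 own regions there (37.7%, Wilson 95% interval 35.0% to 40.5%), and that labelled wild type replicate 1 had 27 of 214 (12.6%, 8.82% to 17.7%). In the SOX2 set, the SOX2 list had 1139 of 14524 there (7.84%, 7.42% to 8.29%), the fusion list 319 of 37561 (0.849%) and the wild-type list 122 of 19464 (0.627%). The IDR lists need an entry from both inputs, so they are not cut like the lists of single libraries.

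CTD-deletion-only regions in and out of gene-free stretches are set side by side here for how closely their summits lay. Within 50 bp were 33.8% (26.6% to 41.8%) of the 145 in such stretches and 26.0% of the other 1706. Their median widths were 395 bp and 470 bp.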
